A study of Mus musculus with 24 samples.

Results

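Complex I of the respiratory chain is the NADH dehydrogenase of the inner mitochondrial membrane, and most of its nuclear genes in the mouse carry symbols that begin with Nduf. The genes described here are all rows of the deposited gene count table whose symbol begins with Nduf, which gave 45 of 24421 rows. Of these, 43 passed the filter on low counts that left 12742 genes for testing. By role they comprise 7 core subunits, 22 short accessory subunits with a deposited gene length under 1000 bases (21 tested), 7 longer accessory subunits and 7 assembly factors. The other 2 rows, Ndufa4 (tested) and its paralog Ndufa4l2 (not tested), carry the name but are not complex I subunits, and Ndufa4 is known as a component of cytochrome c oxidase.

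Complex I takes electrons from NADH through a flavin and a chain of iron-sulfur clusters in its peripheral arm to ubiquinone, and pumps protons through its membrane arm. The core subunits carry these redox centres, the accessory subunits surround and stabilise them, and assembly factors help to build the enzyme without remaining in it. In blood formation, mature neutrophils are known for few mitochondria and a reliance on glycolysis, whereas dividing progenitors and red cell precursors hold more.

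Transcripts were counted by RNA-seq of mononuclear cells from the bone marrow of primary mice carrying Shp2 E76K, an activated form of the phosphatase Shp2 (gene Ptpn11) used to model juvenile myelomonocytic leukemia. Mice were dosed for 3 weeks with the BTK inhibitor ACP196 (replicates 4 to 6), with ACP319, which blocks the p110δ isoform of PI3K (replicates 7 to 9), with both drugs (the combination, replicates 10 to 12) or with vehicle (replicates 1 to 3). All 4 groups carry Shp2 E76K, so there is no group without it here, and the labels give neither the driver of the allele nor the age of the mice. Each group has 3 specimens, and because the labels do not tie a specimen to 1 mouse, p-values measure the spread between specimens only.

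Between 8993950 and 22154833 reads were counted per specimen. The shallowest library, BTK inhibitor replicate 5, gave 15.4% of its counts to the ribosomal precursor Rn45s, against 0.203% to 0.773% in the other 11. BTK inhibitor replicate 6 carries day 30 in its title and the other 11 specimens day 24, and the labels do not say what happened on that day. Y-linked transcripts summed to more than 10 CPM only in vehicle replicates 1 and 2, BTK inhibitor replicate 4, PI3K inhibitor replicate 8 and combination replicate 11. Their presence was thus not balanced between vehicle and the drug groups. Specimens also differed in how level depended on gene length. The slope of log2 CPM, taken relative to the mean of all specimens, on log2 length ran from -0.38 to 0.40 per doubling of length, and was negative (shorter genes relatively more abundant) in BTK inhibitor replicates 4 and 5 and in all 3 PI3K inhibitor specimens. Since most complex I genes are short, their changes are given beside those of other genes of like length, meaning tested genes outside the family with 80% to 125% of a member's length. The preparation is labelled mononuclear, yet 14 tested neutrophil markers summed to between 63848 and 221345 CPM in a specimen. In such bulk samples, fewer cells of a type and less RNA per cell cannot be told apart.

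All 45 Nduf rows, Ndufa4 included, took 0.225% to 0.694% of a specimen's counts. Levels per length (CPM per kilobase) in vehicle specimens differed between some role classes. Short and longer accessory subunits are split by the same deposited length that divides CPM, so role and length cannot be told apart there. Ndufa4 was the highest row at 265 ± 88.4 CPM per kilobase in vehicle specimens (SD, n = 3). The next rows were the membrane-arm accessory subunits Ndufb8 at 197 ± 49.4, Ndufb7 at 189 ± 35.8, Ndufa3 at 185 ± 34.99 and Ndufb9 at 159 ± 51.8, and neighbours in this order did not differ beyond their spread. Short accessory subunits had a median of 99.8 CPM per kilobase (27.4 to 197), core subunits 57.97 (30.2 to 77.2), longer accessory subunits 59.8 (16.4 to 64.6) and assembly factors 10.0 (2.45 to 12.9). Per deposited length, the lowest tested rows in vehicle specimens were Ndufaf4 at 3.86 ± 1.48 and Ndufaf5 at 2.45 ± 0.922 CPM per kilobase. The human counterpart of Ndufaf5 modifies the core subunit NDUFS7. Ndufaf6, with a deposited length of 1082 bases, had fewer counts in vehicle replicates 1, 2 and 3 (143, 76 and 160) than Ndufaf5 (153, 100 and 211). The order at the low end thus depends on the length used.

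The 2 untested rows were near 0. Ndufs5, a small accessory subunit of the membrane arm, had 2 counts in vehicle replicate 1 and 0 in the other 11 specimens. Of its exon bases, 484 (95.1%) also lie in the row BC002163, which had 5 to 41 counts per specimen, so its low count cannot be read as a low transcript level. Ndufa4l2 had 1, 1 and 3 counts in PI3K inhibitor replicates 7, 8 and 9, 1 count in combination replicate 12 and 0 elsewhere. These are at or under the floor of 3 counts, and no fold is given.

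**Figure D1:**
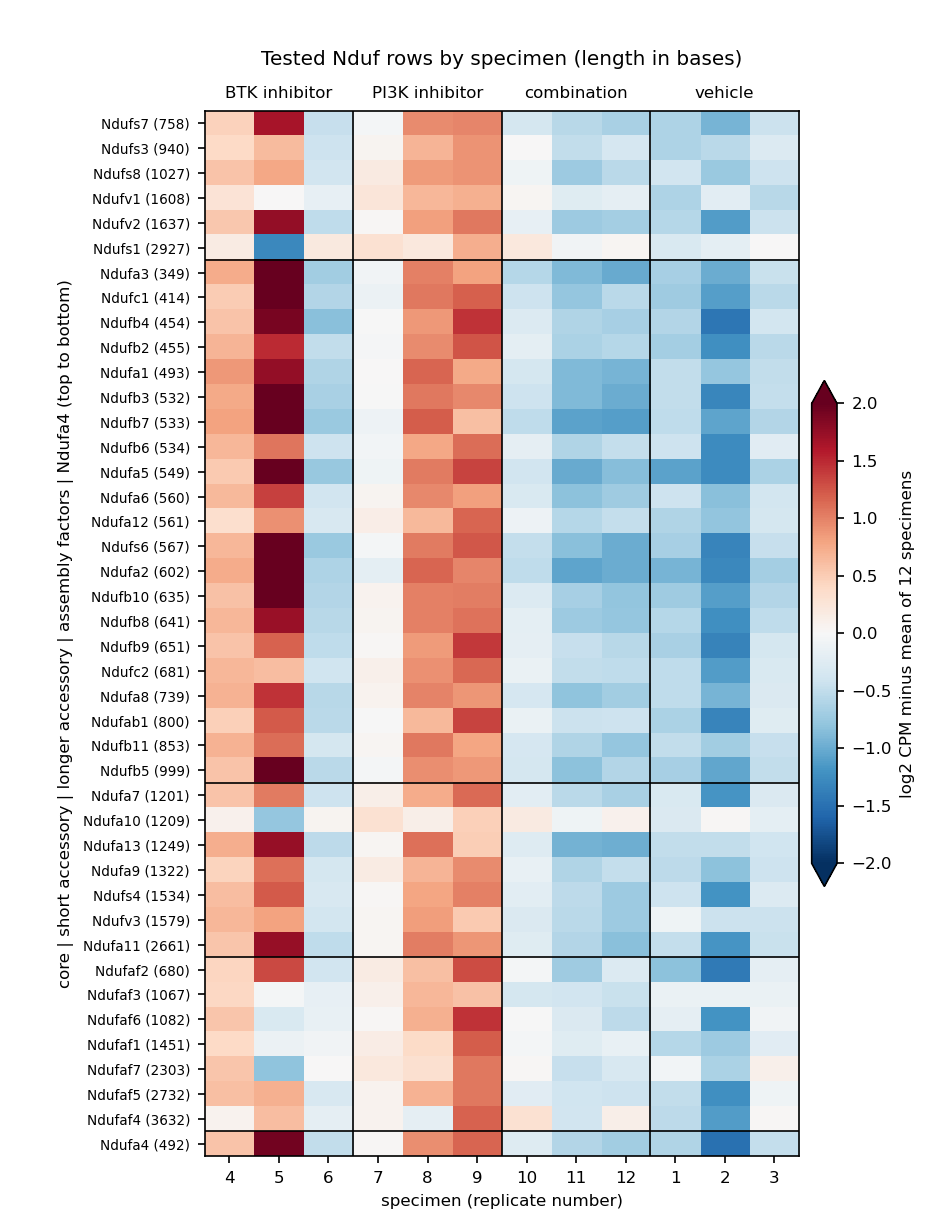
Log2 CPM of 42 of the 43 tested rows (down, by role and then by length in bases) in the 12 specimens (across, by group), as the difference from the row's mean over all specimens. Colours saturate at 2 log2 units. BTK inhibitor replicates 4 and 5 and PI3K inhibitor replicates 8 and 9 are mostly red, and the combination and vehicle specimens mostly blue.

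Under the PI3K inhibitor, transcripts of complex I were more abundant than under vehicle in every role class. All 43 tested rows had a positive log2 fold change, with a median of 1.28 (range 0.46 to 1.85), where the median of all 12742 tested genes was -0.01. By the quasi-likelihood test of edgeR (Benjamini-Hochberg adjusted over the whole table), 11 of the 43 rose and 0 fell at an adjusted p under 0.05, against 4.84% of all tested genes called higher. The 11 were 4 core subunits (among them Ndufv1, Ndufs8 and Ndufs3), 5 short accessory subunits (Ndufc2, Ndufa12, Ndufb9, Ndufb2 and Ndufb11), Ndufa9 and Ndufaf1. A further 24 rows had an adjusted p between 0.05 and 0.1. At an unadjusted p under 0.05, 39 of 43 were higher (background 18.1%), and DESeq2 called 33 higher (background 13.3%). Short genes outside the family also had many calls. Of all 1022 tested genes under 1000 bases, edgeR called 187 higher, beside 5 of the 21 tested short accessory subunits. An unadjusted p under 0.05, in either direction, was found in 623 of those 1022 genes and in 20 of the 21. The 3 PI3K inhibitor specimens lay above all 3 vehicle specimens for 42 of the 43 rows, as they did for 24.9% of all tested genes. The exception was Ndufaf4.

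Ndufv1, the core subunit that binds NADH and the flavin, had 134, 180.4 and 185 CPM under the PI3K inhibitor and 73.9, 98.2 and 77.4 CPM under vehicle. The groups did not overlap, and all 3 inhibitor specimens stood well clear of the vehicle range. The log2 fold change was 1.00 ± 0.24 (SE; edgeR quasi-likelihood adjusted p 0.0403). Ndufs8, an iron-sulfur core subunit next to the ubiquinone site, had 106, 167 and 174 CPM under the PI3K inhibitor and 71.7, 55.5 and 69.7 CPM under vehicle. Replicate 7 was the lowest of the inhibitor specimens but still above every vehicle specimen, and the log2 fold change was 1.18 ± 0.32 (SE; edgeR adjusted p 0.0425). Ndufs3, a core subunit of the stalk that joins early in assembly, had 52.6, 80.8 and 93.9 CPM under the PI3K inhibitor against 32.9, 34.7 and 41.6 CPM under vehicle. Its groups were likewise apart, with replicate 7 nearest to vehicle, and its log2 fold change was 1.06 ± 0.30 (SE; edgeR adjusted p 0.0454).

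Among the short accessory subunits, Ndufc2, which sits in the membrane arm, had 111, 195 and 228 CPM under the PI3K inhibitor and 72.8, 47.5 and 83.6 CPM under vehicle. Ndufa12, a peripheral-arm subunit added late in assembly, had 52.3, 75.1 and 108 CPM against 31.5, 27.8 and 37.5 CPM under vehicle. In both rows replicate 9 was the highest and replicate 7 the lowest inhibitor specimen, with no overlap. Ndufb9, a membrane-arm subunit that binds the acyl carrier protein Ndufab1, had 174, 309.8 and 456 CPM under the PI3K inhibitor against 109, 67.7 and 134 CPM under vehicle. Ndufb2, another membrane-arm subunit, had 48.2, 94.5 and 116 CPM under the PI3K inhibitor against 30.4, 20.8 and 33.4 CPM under vehicle. The order was the same again, and vehicle replicate 2 was the lowest specimen of the pair of groups. The log2 fold changes were 1.39 ± 0.35 for Ndufc2, 1.28 ± 0.34 for Ndufa12, 1.59 ± 0.44 for Ndufb9 and 1.61 ± 0.44 for Ndufb2 (SE), at edgeR adjusted p of 0.0407, 0.0407, 0.0425 and 0.0425. Of the 43 tested rows, 40 had their lowest PI3K inhibitor value in replicate 7 and 30 their highest in replicate 9.

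Ndufa9, a longer accessory subunit at the base of the peripheral arm, had 143, 204 and 247 CPM under the PI3K inhibitor and 88.4, 72.1 and 95.5 CPM under vehicle, with a log2 fold change of 1.21 ± 0.34 (SE; edgeR adjusted p 0.0444). Ndufaf1, an assembly factor for the membrane arm, had 22.7, 26.7 and 47.9 CPM under the PI3K inhibitor and 13.8, 12.4 and 17.5 CPM under vehicle, with a log2 fold change of 1.15 ± 0.30 (SE; edgeR adjusted p 0.0407). Neither row overlapped between the groups, and for Ndufaf1 replicate 9 stood far above replicates 7 and 8. Ndufa4, the cytochrome c oxidase component, had 229, 429 and 506 CPM under the PI3K inhibitor and 149, 80.5 and 162 CPM under vehicle, without overlap, but its log2 fold change of 1.57 ± 0.51 (SE) missed the threshold at an edgeR adjusted p of 0.0582. The largest log2 fold change, 1.85 ± 0.72 for the peripheral-arm subunit Ndufa5 (SE; edgeR adjusted p 0.0907), and the smallest, 0.46 ± 0.26 for the membrane-arm subunit Ndufa10 (SE; edgeR adjusted p 0.218), both missed it too. Ndufaf4 was the row whose groups overlapped, with 20.5, 17.2 and 43.96 CPM under the PI3K inhibitor against 13.5, 8.94 and 19.7 CPM under vehicle.

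**Figure D2:**
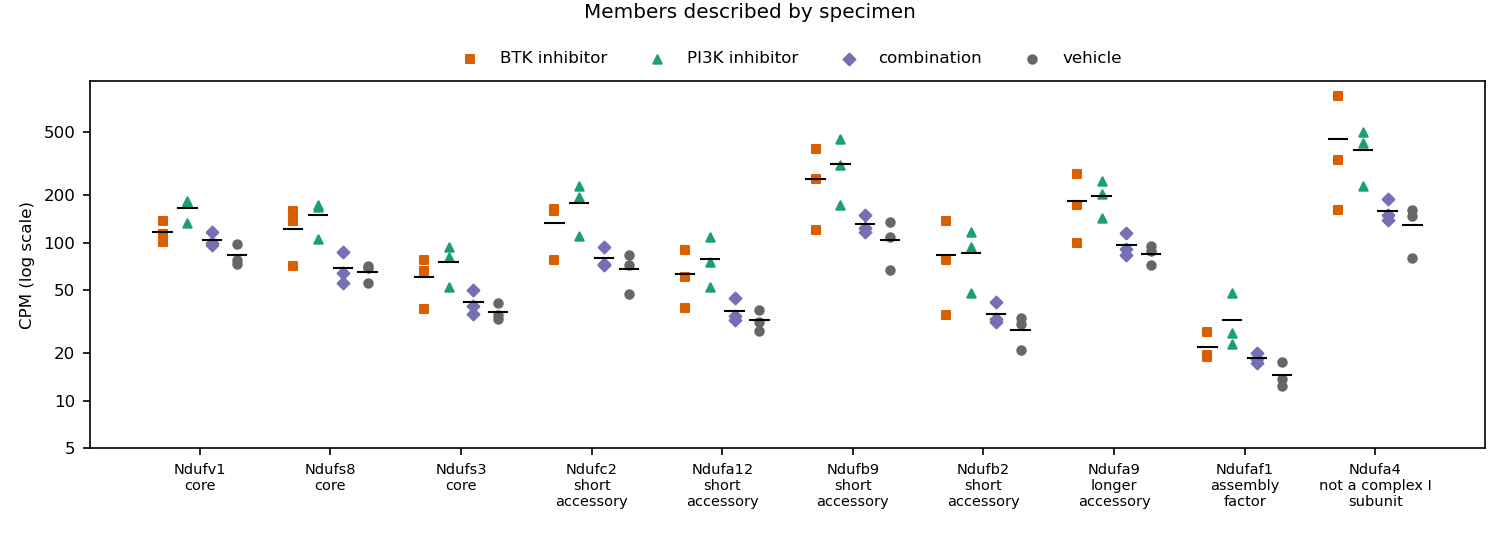
CPM (log scale) of 10 rows by specimen, up to 4 per role class. Each point is 1 specimen and each bar the mean of 3, with BTK inhibitor, PI3K inhibitor, combination and vehicle from left to right. In all 10 rows PI3K inhibitor specimens lie above vehicle specimens, and combination specimens overlap vehicle specimens.

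The calls between the PI3K inhibitor and vehicle depended on the fit. The count was 0 of 43 with an offset for gene length and with the presence of Y-linked transcripts as a covariate. It was also 0 when any single specimen of the vehicle group (1, 2, 3), of the combination (10, 11, 12) or PI3K inhibitor replicate 8 or 9 was left out. In each of these settings 0 of all tested genes were called. The count of Nduf rows was 40 without BTK inhibitor replicate 5 (background 17.1%), 38 without BTK inhibitor replicate 6 (background 13.3%), 28 without PI3K inhibitor replicate 7 (background 8.08%), and 38 when only the 2 groups compared were fitted (background 16.2%). Over the 19 alternative settings the adjusted p of Ndufv1, for example, ran from 0.000961 to 0.209.

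Under the BTK inhibitor, the median log2 fold change was close to that under the PI3K inhibitor, but the specimens disagreed and no row passed the threshold. Of the 43 tested rows 42 had a positive log2 fold change against vehicle, with a median of 1.24 (range -0.01 to 3.05) beside -0.02 for all tested genes. By the quasi-likelihood test of edgeR (Benjamini-Hochberg adjusted) 0 of 43 rows were called higher or lower, as were 0% of all tested genes. At an unadjusted p under 0.05, 35 of 43 were higher (background 15.8%), and DESeq2 called 25 higher (background 7.32%). Groups did not overlap for 8 rows, all higher under the BTK inhibitor, where 8.92% of all tested genes were so placed. BTK inhibitor replicate 5 held the highest value of all 12 specimens in 24 of 43 rows and the lowest in 3, whereas replicate 6 exceeded every vehicle specimen in 10 rows only. Without replicate 6 the count called higher was 34 of 43 (background 16.1%).

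Replicate 5 also pulled the subunits apart from each other. Ndufa2, a peripheral-arm accessory subunit with a thioredoxin-like fold, had 148, 938 and 57.5 CPM in BTK inhibitor replicates 4, 5 and 6 against 46.7, 36.1 and 55.3 CPM under vehicle. One specimen, replicate 5, is far above the others, and replicate 6 is just above the highest vehicle specimen. The log2 fold change was 3.05 ± 0.77 (SE), and 1.16 ± 0.42 without replicate 5. Ndufs1, the largest core subunit and carrier of several iron-sulfur clusters, had 111, 40.4 and 114 CPM under the BTK inhibitor against 80.2, 86.1 and 99.2 CPM under vehicle, so that replicate 5 was the lowest of the 6 specimens. Ndufa10 behaved likewise, with 88.7, 48.5 and 86.9 CPM under the BTK inhibitor and 68.5, 84.9 and 72.6 CPM under vehicle. The log2 fold changes were 0.00 ± 0.33 for Ndufs1 and -0.01 ± 0.26 for Ndufa10 (SE), the 2 smallest of the 43. The ratio of Ndufa2 to Ndufs1, each per kilobase, was 6.49, 113 and 2.46 in BTK inhibitor replicates 4, 5 and 6, 3.06, 8.52 and 5.20 in PI3K inhibitor replicates 7, 8 and 9, 2.64, 2.19 and 2.14 in combination replicates 10, 11 and 12 and 2.83, 2.04 and 2.71 in vehicle replicates 1, 2 and 3. Subunits that occur in fixed numbers within 1 enzyme thus had transcript ratios that differed widely in replicate 5, a library of low depth and high Rn45s, whose part in this ratio was not tested. Without replicate 5 all 43 rows had a positive log2 fold change (0.22 to 1.16, median 0.76) and 0 passed the threshold.

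Other rows differed in the order of the BTK inhibitor specimens. Ndufv1 had 137, 114 and 101 CPM in BTK inhibitor replicates 4, 5 and 6, all above the vehicle range, with a log2 fold change of 0.50 ± 0.24 (SE; edgeR adjusted p 0.209). Ndufv2, the iron-sulfur partner of Ndufv1, had 257, 599 and 124 CPM under the BTK inhibitor against 119, 81.2 and 132 CPM under vehicle, where replicate 6 lay inside the vehicle range. Ndufa4 had 337, 856 and 160.3 CPM under the BTK inhibitor, again with replicate 6 inside the vehicle range and replicate 5 the highest of all specimens.

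Under the combination, complex I transcripts were near their vehicle level. Of the 43 tested rows 32 had a positive log2 fold change against vehicle, with a median of 0.16 (range -0.27 to 0.52) beside 0.00 for all tested genes. By edgeR 0 of 43 rows passed the threshold in either direction (background 0%), 0 had an unadjusted p under 0.05 (background 4.91%), and DESeq2 called 0 (background 0.173%). Ndufv1 had 116, 96.2 and 99.5 CPM under the combination and 73.9, 98.2 and 77.4 CPM under vehicle, with a log2 fold change of 0.32 ± 0.24 (SE). Ndufb9 had 150.4, 125 and 117 CPM under the combination and 109, 67.7 and 134 CPM under vehicle, with a log2 fold change of 0.33 ± 0.43 (SE). Both rows overlapped between the groups. Groups were apart for 1 row only, the assembly factor Ndufaf3, which had 11.8, 11.5 and 11.0 CPM under the combination against 13.8, 13.8 and 13.8 CPM under vehicle, and 9.47% of all tested genes were placed so that the combination was lower. Its log2 fold change of -0.27 ± 0.24 (SE) was the most negative of the 43 and did not pass the threshold. Combination replicate 10 was the highest of its group in all 43 rows and lay above every vehicle specimen in 36 of them, whereas replicate 11 did so in 0.

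Against the PI3K inhibitor, the combination was lower in all 43 tested rows, with a median log2 fold change of -1.20 (range -1.62 to -0.25). Genes of like length had a median of -0.96, and 964 of all 1022 tested genes under 1000 bases were lower. For 40 rows the 3 combination specimens lay below the 3 PI3K inhibitor specimens (24.6% of all tested genes), the other 3 being Ndufs1, Ndufa10 and Ndufaf4. By edgeR with Benjamini-Hochberg adjustment 0 of 43 were called lower (background 0%), with 40 at an unadjusted p under 0.05 (background 14.7%), and DESeq2 called 16 lower (background 4.50%). Ndufs8 had 87.3, 55.99 and 64.2 CPM under the combination and 106, 167 and 174 CPM under the PI3K inhibitor, a log2 fold change of -1.11 ± 0.32 (SE; edgeR adjusted p 0.125). Ndufb11, an X-linked membrane-arm subunit, had 117, 97.5 and 87.2 CPM under the combination and 153, 309 and 257 CPM under the PI3K inhibitor, a log2 fold change of -1.25 ± 0.36 (SE; edgeR adjusted p 0.125). In both rows every combination specimen was the lower one. The count called lower was 34 without BTK inhibitor replicate 5 (background 9.38%), 32 without BTK inhibitor replicate 6 (background 6.31%) and 40 when only these 2 groups were fitted (background 16.1%).

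Against the BTK inhibitor, the combination was lower in 41 of 43 tested rows, with a median log2 fold change of -1.11 (range -2.93 to 0.22). Genes of like length had a median of -0.85. The 2 rows with a positive value were Ndufs1 and Ndufa10. Groups were apart in 2 rows, among them Ndufaf3, both lower under the combination (6.73% of all tested genes). By edgeR 0 of 43 were called lower (background 0%), with 29 at an unadjusted p under 0.05 (background 13.9%), and DESeq2 called 15 lower (background 4.48%). Without BTK inhibitor replicate 6 the edgeR count was 33 of 43 (background 14.7%). These comparisons share specimens with those against vehicle and are not independent of them.

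The interaction of the inhibitors is the log2 change of the combination minus those of the 2 single drugs, all against vehicle, so that a negative value means less than the sum of the single changes. It was negative in all 43 tested rows, with a median of -2.41 beside -1.79 for genes of like length and 0.05 for all tested genes. The quasi-likelihood test of edgeR (Benjamini-Hochberg adjusted) placed 38 of 43 past the threshold on the negative side (background 15.6%), 39 had an unadjusted p under 0.05 (background 23.0%), and DESeq2 called 39 (background 20.5%). All 21 tested short accessory subunits passed, with 6 of 7 core subunits, 6 of 7 longer accessory subunits, 4 of 7 assembly factors and Ndufa4. Of all 1022 tested genes under 1000 bases, 639 were also called on the negative side. The Nduf rows that did not pass were Ndufs1, Ndufa10, Ndufaf4, Ndufaf6 and Ndufaf7. Without BTK inhibitor replicate 5 the count was 40 of 43 (background 14.3%). It was 0 with the gene length offset and when 1 of 5 specimens was left out, vehicle replicate 2, combination replicate 11 or 12, or PI3K inhibitor replicate 8 or 9. In those fits 0 or 1 of all tested genes passed.

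Role classes differed in size of change together with their lengths. Under the BTK inhibitor the median log2 fold change against vehicle was 1.63 for 21 short accessory subunits, 1.10 for 7 longer accessory subunits, 0.74 for 7 core subunits and 0.59 for 7 assembly factors. Other genes of like length had medians of 1.14, 0.47, 0.31 and 0.40 in the same order. Under the PI3K inhibitor the medians were 1.44 for short accessory subunits, 1.21 for longer accessory subunits, 1.06 for core subunits and 1.15 for assembly factors, beside 1.20, 0.65, 0.45 and 0.56 for genes of like length. The gap between short accessory and core subunits was therefore present in genes outside the family as well. Like length was set by the deposited length. For the longer accessory subunits Ndufa7 and Ndufa11, all GENCODE M21 coding transcripts are under 1000 bases (528, and 493 to 918). The like-length values of that class depend on which length is taken. All 1022 tested genes under 1000 bases, the limit for a short subunit, had medians of 1.00 under the BTK inhibitor and 1.11 under the PI3K inhibitor. Under the combination the class medians lay between 0.10 and 0.18, with little difference between classes.

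**Figure D3:**
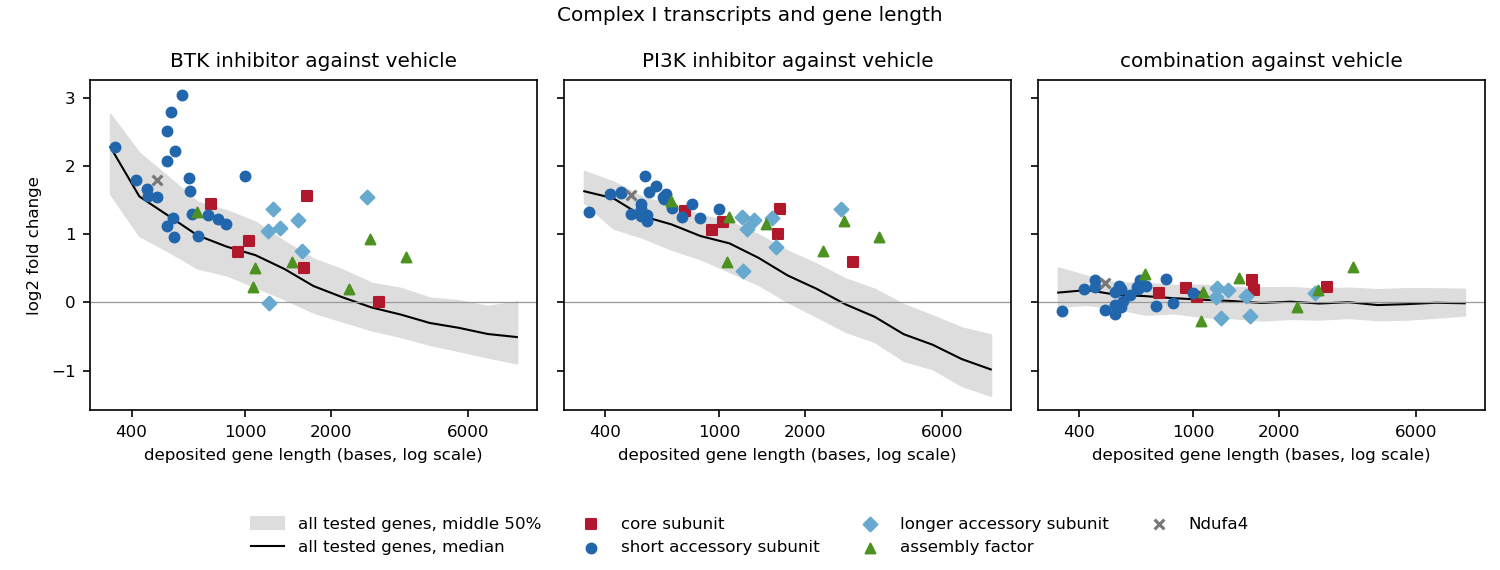
Log2 fold change against vehicle (vertical) by deposited gene length in bases (horizontal, log scale) for the BTK inhibitor, the PI3K inhibitor and the combination. Points are 42 of the 43 tested rows by role, the line is the median and the band the middle 50% of all tested genes in bins of length. Members lie mostly above the line for both single inhibitors, at short and long lengths, and scatter about it for the combination.

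Members lay above genes of their own length by less than they lay above vehicle. A row's log2 fold change exceeded the median of its like-length genes in 37 of 43 rows under the BTK inhibitor and 39 of 43 under the PI3K inhibitor, with a median excess of 0.36 in each. Under the combination 31 of 43 did so, with a median excess of 0.10. Over the 43 rows, Spearman's rho between length and log2 fold change was -0.68 under the BTK inhibitor, -0.69 under the PI3K inhibitor and 0.02 under the combination, where all tested genes gave -0.50, -0.64 and -0.04. These correlations are across genes of the same libraries and carry no p. With a spline of gene length in each specimen's offset, the median log2 fold change was 0.41 under the BTK inhibitor (38 of 43 positive), 0.46 under the PI3K inhibitor (41 of 43) and 0.095 under the combination (30 of 43). No row passed the adjusted threshold in that fit, nor did any other tested gene. An unadjusted p under 0.05 was found in 16, 13 and 0 rows, and in 2496, 2812 and 889 of all 12742 tested genes. With the length offset and without BTK inhibitor replicate 5, 8 of 43 rows were called higher under the PI3K inhibitor (background 9.56%). They were Ndufa11, Ndufa5, Ndufa9, Ndufaf4, Ndufaf5, Ndufs1, Ndufs4 and Ndufv2, of which Ndufa9 alone is among the 11 called without the offset, and the offset used deposited lengths.

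The rows furthest above genes of like length under the PI3K inhibitor were long by their deposited length. Ndufa11, a membrane-arm subunit of the Tim17 family, exceeded its 3266 like-length genes by 1.37 log2 units, Ndufaf5 by 1.21 and Ndufaf4 by 1.21. For Ndufa11 the deposited length of 2661 bases is far above that of its GENCODE M21 coding transcripts, 493 to 918 bases. The 1283 tested genes whose length matches those transcripts had a median log2 fold change of 1.03 under the PI3K inhibitor and 0.90 under the BTK inhibitor, against 1.37 and 1.54 for Ndufa11 itself. Ndufaf5 has a deposited length of 2732 bases and 1 coding transcript of 1166 bases, and the 1346 tested genes that match the transcript had a median of 0.77 under the PI3K inhibitor, against 1.20 for Ndufaf5. Ndufaf4 has a deposited length of 3632 bases and 2 coding transcripts of 673 and 3632 bases. The excess of these rows over genes of like length therefore depends on which length is taken. Rows below their like-length genes under the PI3K inhibitor were Ndufa10 by -0.28, Ndufa3 by -0.25, Ndufaf3 by -0.24 and Ndufa6 by -0.01.

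Taken specimen by specimen, the family moved with genes of like length. The median deviation of the 43 rows from their own means was 0.57, 1.23 and -0.42 log2 units in BTK inhibitor replicates 4, 5 and 6, 0.04, 0.85 and 1.00 in PI3K inhibitor replicates 7, 8 and 9, -0.21, -0.60 and -0.59 in combination replicates 10, 11 and 12 and -0.53, -1.10 and -0.39 in vehicle replicates 1, 2 and 3. Genes of like length gave 0.48, 0.93 and -0.32 in the BTK inhibitor specimens, 0.08, 0.73 and 0.77 in the PI3K inhibitor specimens, -0.17, -0.48 and -0.53 in the combination specimens and -0.32, -0.83 and -0.24 in the vehicle specimens. The 5 specimens with a positive median for the family were the 5 with a negative slope on gene length. PI3K inhibitor replicate 7 and BTK inhibitor replicate 6 were the low specimens of their groups on both measures.

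**Figure D4:**
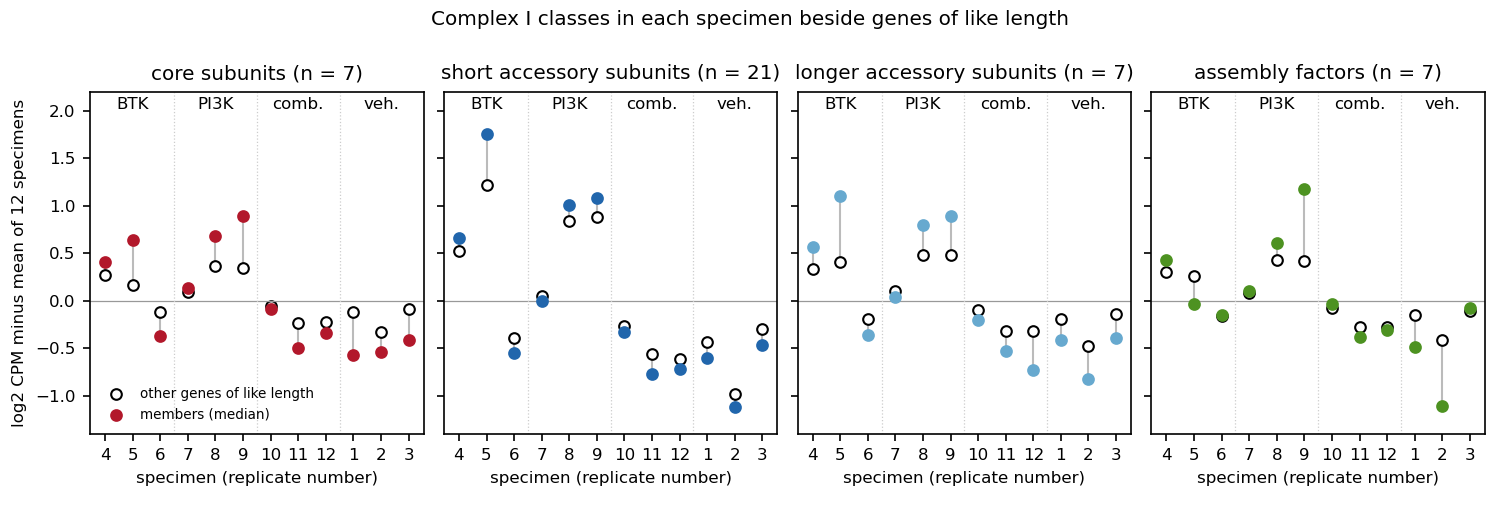
Median deviation from the mean of 12 specimens (log2 CPM) of each role class, filled, and of other genes of like length, open, in each specimen, with BTK inhibitor, PI3K inhibitor, combination and vehicle from left to right. Filled and open points mostly move together, and filled points lie further from 0 in most specimens. In BTK inhibitor replicate 5 short accessory subunits are at 1.75 beside 1.22 for genes of like length, but assembly factors at -0.03 beside 0.26.

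Promoters were searched for motifs of factors known to act on nuclear respiratory genes, since the rows moved together across specimens. RefSeq gives promoter sequences (GRCm38.p6, 250 bases before to 50 after the start) for 39 of the 45 rows. With both strands read, the NRF1 core CGCATGCG, which is its own reverse complement, lay in 4 of 39 (10.3%; 2.07% of 27025 genes). The YY1 letters AAGATGGCG lay in 5 of 39 (12.8%; 1.64% of all genes), the GABPA letters CCGGAAGT in 1 of 39 (2.56%; 4.31%) and the ERRA letters TCAAGGTCA in 0 of 39 (0.466% of all genes). In all 5 the YY1 letters read in the direction of transcription and began 23 to 36 bases after the start. These stretches of 30 bases are shown because they share the motif and its place, with the match in capitals (Ndufa9 at chr6:126849101-126849130 -, Ndufc1 at chr3:51408919-51408948 -, Ndufs4 at chr13:114388045-114388074 -, Ndufs6 at chr13:73328435-73328464 - and Ndufs7 at chr10:80249458-80249487 +):
Ndufa9: gaggcattgtgggagAAGATGGCGgccgcc
Ndufc1: cggagcctgcggaacAAGATGGCGccgtcc
Ndufs4: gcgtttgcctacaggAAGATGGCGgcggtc
Ndufs6: tcaagggtcaccggcAAGATGGCGgcggtg
Ndufs7: ctgaaggccgaggccAAGATGGCGgcgctg

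The NRF1 core began 59 bases before the start in Ndufa11, 9 before it in Ndufa8, 112 before it in Ndufaf4 and at base 18 after it in Ndufaf5. The same 30 bases around it are shown, with the core in capitals, since the flanks differ (Ndufa11 at chr17:56717688-56717717 +, Ndufa8 at chr2:36049333-36049362 -, Ndufaf4 at chr4:24897956-24897985 + and Ndufaf5 at chr2:140170648-140170677 +):
Ndufa11: caaacctgcactgcgCGCATGCGcgcacgc
Ndufa8: gcgcgtcgctggagaCGCATGCGcagatgg
Ndufaf4: acgcccagatgtctgCGCATGCGcctgtgc
Ndufaf5: tcgtagtcccgttggCGCATGCGcctaata

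For Ndufs3, a core subunit that rose under the PI3K inhibitor, 280 bases up to 30 after the start are shown (chr2:90904692-90904971, minus strand), with the reverse complement of the GABPA letters, ACTTCCGG, in capitals, beginning at the start:
Ndufs3: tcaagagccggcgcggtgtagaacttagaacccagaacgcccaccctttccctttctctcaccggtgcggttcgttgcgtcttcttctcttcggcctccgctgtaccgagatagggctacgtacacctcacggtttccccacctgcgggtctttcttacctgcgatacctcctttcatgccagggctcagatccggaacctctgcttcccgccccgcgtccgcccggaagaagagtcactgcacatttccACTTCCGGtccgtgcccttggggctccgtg
A match is a description of letters, and binding was not measured.

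The genes of these and other factors of respiratory gene control were not called in any comparison with vehicle. Of 9 such regulators 8 were tested, with median log2 fold changes of 0.04 under the BTK inhibitor, 0.09 under the PI3K inhibitor and 0.01 under the combination. These genes are long, with a median deposited length of 4452 bases, and with the length offset the medians were 0.44, 0.27 and -0.003. Under the PI3K inhibitor the log2 fold changes were 0.07 for Nrf1, -0.89 for Gabpa, -0.49 for Yy1 and 1.00 for Tfam, the mitochondrial transcription factor, whose edgeR adjusted p was 0.0572. Assembly factors without an Nduf name had 9 of 12 tested, with medians of 0.17, 0.56 and 0.22 under the BTK inhibitor, the PI3K inhibitor and the combination. One of the 9 rose under the PI3K inhibitor, Nubpl, which delivers iron-sulfur clusters to the enzyme, with a log2 fold change of 1.12 (edgeR adjusted p 0.0423). Both lists were drawn up with earlier results of these data known.

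Markers of blood cell types varied beside complex I. Under the PI3K inhibitor against vehicle, 3 of 12 tested erythroid markers and 4 of 10 cycling markers were called higher and 3 of 10 monocyte markers lower by edgeR, where 4.84% of all tested genes were called higher and 5.82% lower. In the other lists 1 of 14 neutrophil markers was called lower and 1 of 7 megakaryocyte markers higher, with 0 called among 12 B-lineage precursor, 7 mature B and 11 T and NK markers. No marker of any of these lists was called under the BTK inhibitor or the combination against vehicle. Summed erythroid markers were 1401 to 2732 CPM under the BTK inhibitor, 2168 to 4185 under the PI3K inhibitor, 3553 to 3943 under the combination and 675 to 2804 under vehicle. Summed cycling markers were 2748 to 3409 CPM under the BTK inhibitor, 3178 to 4432 under the PI3K inhibitor, 3711 to 3971 under the combination and 2413 to 3574 under vehicle. Under the combination both sums lay above every vehicle specimen, whereas complex I transcripts were near their vehicle level. Summed neutrophil markers were 87139 to 221345 CPM under the BTK inhibitor, 107401 to 206882 under the PI3K inhibitor, 63848 to 81867 under the combination and 93833 to 120317 under vehicle. Of these, S100a9, S100a8 and Camp, the highest under the PI3K inhibitor, are 524, 392 and 599 bases long. Under that drug 7 of 14 neutrophil markers had a positive log2 fold change, with a median of 0.03 (-0.53 with the length offset). The 3 monocyte markers called lower there, Cx3cr1, F13a1 and Ace, are 3753, 3927 and 5287 bases long. Mki67, a cycling marker of 10075 bases, had -1.24, while 8 of 10 cycling markers were positive. The part of cell makeup in the complex I values was not tested, nor that of gene length in the markers.

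Some rows share sequence with other genes. In 10 of 45 rows over 10% of the 50-base words of their transcripts also occur in transcripts of other genes, among them Ndufaf2 at 64.1%, Ndufb6 at 31.6%, Ndufa13 at 28.5% and, of the rows called under the PI3K inhibitor, Ndufs3 at 17.9%, Ndufa12 at 17.7%, Ndufb11 at 17.5% and Ndufb9 at 15.6%. Their counts are uncertain to the extent that reads from such copies were assigned to them or dropped. Ndufa13 shares 27.5% of its exon bases with Tssk6 and Ndufs1 shares 8.47% with Ino80dos, and the library kit does not mark strand, so overlapping transcripts cannot be told apart there.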

How the data were processed

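Per the labels' protocols, total RNA was made into libraries with a SMART-Seq cDNA kit and Nextera XT, which does not mark strand. Per the submitters' processing notes, STAR, featureCounts and the mm10 build were used, with no version or setting named in the sources used here. The authors deposited raw counts, whole numbers for each gene, beside its length. The 24 listed samples are 12 specimens with 2 samples each, and the table has 1 column per specimen.

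The analysis used edgeR 4.0.16 in R 4.3.3. Genes passing filterByExpr by group (smallest count 10, total 15) were scaled by TMM, fitted with glmQLFit in a group-means model over all 12 specimens and tested with glmQLFTest (both in robust mode), and p-values were adjusted by Benjamini-Hochberg over 12742 genes, with a threshold of 0.05. The 6 comparisons were those named in the report. Standard errors came from the F statistic, CPM were scaled to the tested genes with TMM, and 2 was the prior count for log2 CPM. Alternatives were DESeq2 1.42.0, RLE scaling, no filter, a length offset (natural spline, 5 degrees of freedom per specimen), the same without BTK inhibitor replicate 5, only the groups compared, Y-linked presence (summed CPM above 10) as a covariate, and leaving out each specimen. Tested on simulated counts, the fit recovered most 4-fold and a minority of 2-fold changes. Where a length trend with slopes close to those of these specimens was simulated, it called far more unchanged genes without the length offset than with it. Since the offset models such a trend, that outcome was set in advance and is no separate evidence on these data. The simulation also gave every gene the same spread between specimens, which real data need not follow.

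The members and lists were chosen with earlier results of these data known. Values by specimen are given for members past the threshold between 2 groups, up to 4 per role class by smallest p, otherwise for those with the smallest p. Rows beyond that rule were added for the highest, lowest and largest values, and Ndufs1, Ndufv2, Ndufb11, Ndufaf3, Ndufaf4 and Ndufa10 were chosen after their values were seen. Depth was 8993950 to 22154833 counts per specimen, and the floor of 3 counts covers counting error only. Mitochondrially encoded subunits were not analysed here, and the values of 1 row are not reported here and not drawn by row in the figures, although counts and medians include it.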

Additional observations from a re-analysis of the deposited data

Results flagged for a closer look

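The change under the combination differed from the sum of the single-drug changes in 38 of 43 tested rows, by the interaction term of edgeR's quasi-likelihood fit at an adjusted p under 0.05, where 15.6% of all tested genes were called on the negative side. All values are log2 units on the scale of that term. Among core subunits the term was -1.18 for Ndufv1, -2.76 for Ndufv2, -1.59 for Ndufs3, -2.65 for Ndufs7 and -2.01 for Ndufs8. Among longer accessory subunits it was -2.22 for Ndufa7, -2.13 for Ndufa9, -2.79 for Ndufa11, -2.68 for Ndufa13, -2.34 for Ndufs4 and -1.77 for Ndufv3. Among assembly factors it was -1.39 for Ndufaf1, -2.41 for Ndufaf2, -1.10 for Ndufaf3 and -1.94 for Ndufaf5, and Ndufa4 had -3.08.

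The short accessory subunits held the most negative values, with a median of -2.97 beside -2.20 for genes of like length. In the peripheral arm the term was -4.64 for Ndufa2, -4.42 for Ndufa5, -2.49 for Ndufa6, -2.04 for Ndufa12 and -3.82 for Ndufs6, and it was -2.31 for the acyl carrier protein Ndufab1. In the membrane arm it was -2.97 for Ndufa1, -3.74 for Ndufa3, -2.59 for Ndufa8, -2.83 for Ndufb2, -3.56 for Ndufb3, -3.06 for Ndufb4, -3.09 for Ndufb5, -2.24 for Ndufb6, -4.04 for Ndufb7, -2.95 for Ndufb8, -2.56 for Ndufb9, -3.15 for Ndufb10, -2.40 for Ndufb11, -3.19 for Ndufc1 and -2.12 for Ndufc2. The most negative of these, Ndufa2 and Ndufa5, were also among the rows with the highest value of all specimens in BTK inhibitor replicate 5. Without that specimen the term was -2.75 for Ndufa2 and -2.60 for Ndufa5, and 40 of 43 rows passed the threshold (background 14.3%).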

How the results depend on the processing

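With the gene length offset the median log2 fold change of the tested rows moved to 0.41 for the BTK inhibitor and 0.46 for the PI3K inhibitor against vehicle, to -0.39 for the combination against the BTK inhibitor, to -0.35 for it against the PI3K inhibitor and to -0.76 for the interaction. When BTK inhibitor replicate 5 was left out as well, these medians were 0.24, 0.47, -0.18, -0.35 and -0.60. The number of rows past the threshold with the offset was 0 for the PI3K inhibitor against vehicle and 0 for the interaction. It was 1 for the interaction when BTK inhibitor replicate 5 was also left out. Of all tested genes 0, 1 and 539 passed in the same order. By DESeq2 the number of rows was 25 for the BTK inhibitor and 33 for the PI3K inhibitor against vehicle (background 7.32% and 13.3%). It was 15 and 16 for the combination against the BTK inhibitor and the PI3K inhibitor (background 4.48% and 4.50%). Fitting only the groups compared gave 38 rows for the PI3K inhibitor against vehicle (background 16.2%) and 40 for the combination against the PI3K inhibitor (background 16.1%). Y-linked presence as a covariate gave 0 for the PI3K inhibitor against vehicle, as for all tested genes. The offset takes the shared length trend out by construction, and otherwise the cause was not tested.

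Leaving out 1 specimen at a time, the number past the threshold ran from 0 to 34 for the BTK inhibitor and 0 to 40 for the PI3K inhibitor against vehicle, 0 to 33 and 0 to 34 for the combination against the BTK inhibitor and the PI3K inhibitor, and 0 to 40 for the interaction, and was 0 throughout for the combination against vehicle. Of all 12876 to 12964 tested genes, the number called ran from 0 to 3809, 0 to 4375, 0 to 3470, 0 to 2499 and 0 to 5692 in the same order. It was 0 throughout for the combination against vehicle. The medians of the Nduf rows ran from 0.76 to 1.58, 1.13 to 1.55, -1.42 to -0.60, -1.44 to -0.98, -2.74 to -1.97 and -0.01 to 0.27 in the same order. No paired analysis was possible because the groups share no replicate numbers. With 3 specimens per group and the shallowest library in the BTK inhibitor group, values of that group are the least certain.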
